A study of Mus musculus with 47 samples.

Results

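The genes described here are the translation initiation factors of satellite cells, the stem cells that lie along muscle fibres and repair them, on a control and a high-fat diet around the day. They were chosen by name: every gene whose symbol starts with Eif and a number, the Eif2ak kinases and Eif4ebp repressors included, each read by its brightest probe set, judged by the mean over all arrays. This gave 41 of 17097 named genes, of which 39 passed the filter on dim genes. Other Eif genes were not analysed here. RNA came from wild type female C57B6/J mice, 15 weeks of age, which had eaten a control or a high-fat diet freely since the age of 8 weeks, that is for 7 weeks. Each of the 47 mice gave 1 array, at 1 of 6 zeitgeber times written ZT0 to ZT20, with 4 mice in each of the 12 groups except 3 at high-fat ZT16. All mice of a time, of both diets, were collected on 1 day, so differences between diets lie within a day, while time of day and collection day cannot be told apart within a diet.

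Initiation is the step at which a ribosome is loaded onto an mRNA. The eIF4 factors bind the cap at the start of the mRNA and unwind it, eIF2 brings the initiator methionyl-tRNA to the small ribosomal subunit, eIF3 holds that subunit to the mRNA, and eIF1 and eIF1A keep it scanning until a start codon is met. The supply of eIF2 is controlled by kinases that phosphorylate it and by its exchange factor eIF2B, and cap binding is controlled by the Eif4ebp repressors under mTORC1. In resting satellite cells, phosphorylation of eIF2 is known to hold protein synthesis low. Arrays read RNA only, so phosphorylation and translation itself are not in these data.

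The arrays were alike in level, with medians of 5.86 to 5.94 on the log2 scale. All 9 satellite cell markers passed the filter (Pax7 had a mean of 10.92 over the arrays), as did 4 of 6 measured fibro-adipogenic, 2 of 5 endothelial, 2 of 6 immune, 5 of 6 myofibre, 3 of 3 measured Schwann cell and 4 of 4 smooth muscle and pericyte markers. Control ZT20 replicate 2 stood apart, with a mean correlation of 0.969 to its group and an endothelial marker level of 7.99, against at most 6.14 in the other mice. Without it, 6 members were still lower on average on the high-fat diet and 7 rather than 6 differed at ZT16. Eif2s3y, the Y-linked copy of an eIF2 subunit, lay between 3.96 and 4.38 in all of these female mice and was left out by the filter. So was Eif2b5, the catalytic subunit of eIF2B, at 4.11 to 4.67. In the alternative run without the filter, limma nevertheless called Eif2s3y lower on the high-fat diet at ZT16 (-0.17 ± 0.05). Control mice then read 4.168 to 4.385 and high-fat mice 3.995 to 4.123. What this difference in a Y-linked gene of female mice reflects was not tested. Just inside the filter, which lay at 5.80, were Eif2ak2 with a mean of 5.81 and Eif2ak3 with 5.93. The titles call the mice of a group biological replicates, and in such bulk RNA fewer cells of a type and less RNA per cell cannot be told apart.

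The first question was whether the factors differed between diets when averaged over all times. On the high-fat diet 6 of the 39 were lower and 0 higher (limma, adjusted p under 0.05). At an unadjusted p under 0.05 there were 13 lower and 0 higher, against 26.7% of all genes in either direction. At the adjusted threshold the background over all 10258 genes was 11.5% called in either direction, 4.7% higher and 6.8% lower. The 6 were Eif1ax and Eif1b of the scanning complex, Eif2s2 of eIF2, the helicase Eif4a3, the repressor Eif4ebp2, and Eif5a, and their differences were modest, from 7.71 to 14.9% of the control level. Of the 39, 30 had a negative difference, with a median of -0.06 on the log2 scale. Over all genes 55.1% were negative and the median was -0.01.

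**Figure D1:**
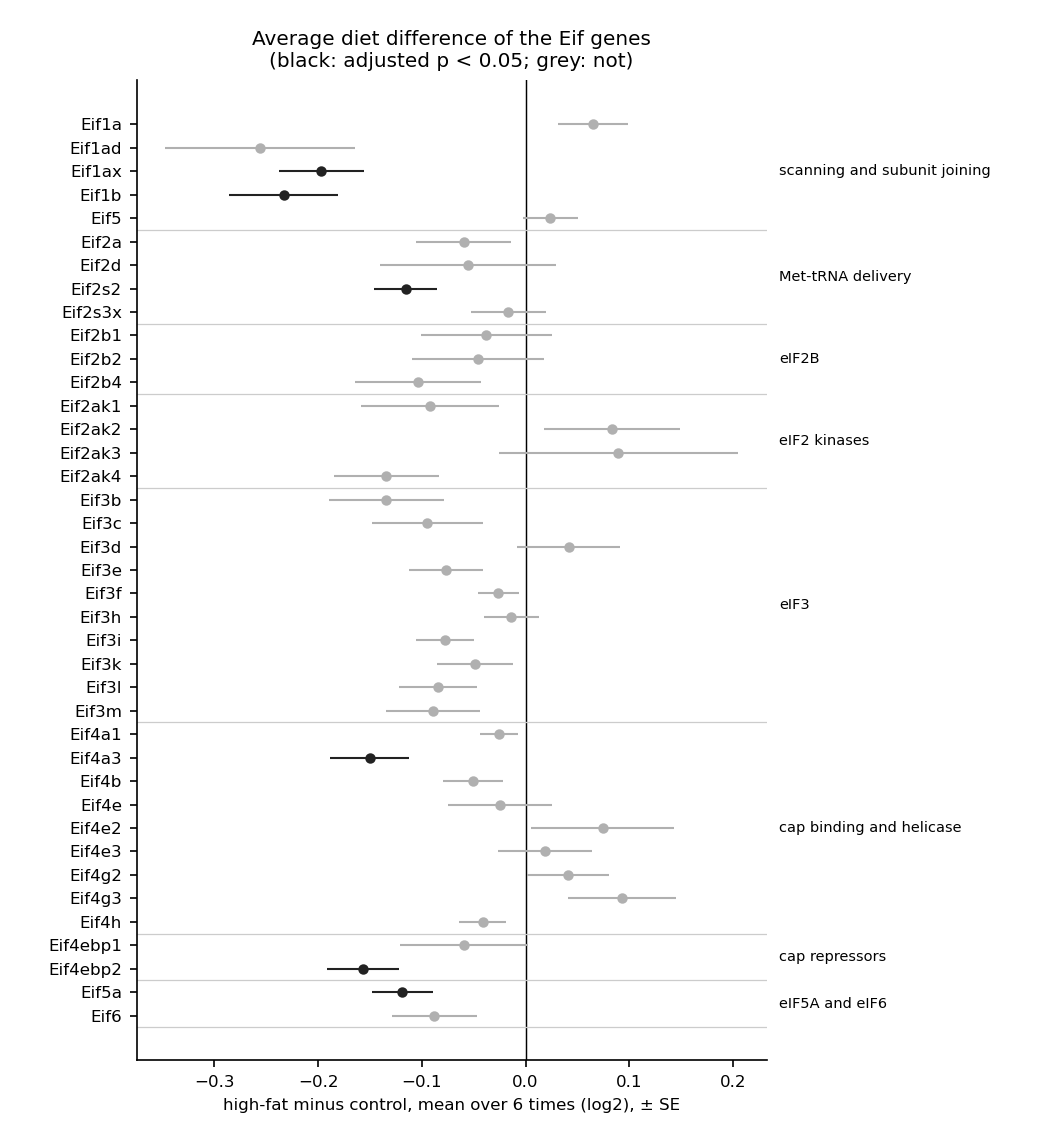
High-fat minus control difference (log2, mean over the 6 times) of each of the 39 tested initiation factors, grouped by role, with bars of 1 SE from limma, black points for an adjusted p under 0.05 and grey points for the rest. The 6 black points all lie below 0, from -0.23 for Eif1b to -0.12 for Eif2s2, and 30 of the 39 points are negative.

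In the scanning group, Eif1ax (the X-linked eIF1A, which helps the small subunit to scan) ran from 9.48 to 10.23 with a median of 9.68 in the 24 control mice. In the 23 high-fat mice it ran from 8.85 to 10.00 with a median of 9.55. The ranges overlapped widely, and the fitted difference was -0.20 ± 0.04 (SE, log2; limma adjusted p = 0.00146), or 12.8% lower. Eif1b, a close relative of the start codon gatekeeper eIF1, had a control median of 8.43 (8.14 to 8.86) and a high-fat median of 8.21 (7.87 to 8.76). It was 14.9% lower, with a difference of -0.23 ± 0.05 (limma adjusted p = 0.00297). Eif1ad, an eIF1A-related gene, had a difference of -0.26 ± 0.09 that stayed short of the threshold (limma adjusted p = 0.0602). Eif1a and Eif5, the latter the activator of GTP hydrolysis on eIF2, had positive differences of 0.07 and 0.02 with limma adjusted p of 0.207 and 0.611.

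The windows upstream of Eif1ax, Eif1b, Eif4h and Eif5a are shown because these genes moved with diet and differ in a motif linked to the clock and to MYC, the E-box CACGTG, searched on both strands from 250 bases before to 50 after each annotated start. These 4 genes were chosen after their values and windows were seen. The other genes called for diet, on average or at a time, hold no E-box in their windows. They are Eif2ak1, Eif2b2, Eif2s2, Eif3d, Eif4a3, Eif4e2 and Eif4ebp2. Conversely, Eif3f, Eif3k, Eif4a1 and Eif4e have an E-box and were not called in those tests. A link between the E-box and diet was not tested. Sequences are RefSeq's (GRCm38.p6), the 250 bases before the start, 5′ to 3′ on the gene's strand, with the E-box in capitals. Eif1ax lies at chrX:159371928-159372177 on the plus strand and has no E-box in its window. Eif1b lies at chr9:120492356-120492605 on the plus strand, with the E-box 24 bases before the start. Eif4h lies at chr5:134639410-134639659 on the minus strand, with the E-box 96 bases before the start. Eif5a has 6 annotated starts, of which the one at chr11:69921387-69921636 on the minus strand is shown, with the E-box 74 bases before it. Of the 6 windows of Eif5a, 3 hold no E-box, and the one shown shares its E-box with the window of a neighbouring start, where it lies 185 bases before.
Eif1ax: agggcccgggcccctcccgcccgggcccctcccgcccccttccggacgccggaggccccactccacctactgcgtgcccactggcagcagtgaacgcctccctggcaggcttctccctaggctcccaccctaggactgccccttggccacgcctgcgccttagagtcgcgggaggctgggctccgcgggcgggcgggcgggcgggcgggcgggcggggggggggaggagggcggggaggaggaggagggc
Eif1b: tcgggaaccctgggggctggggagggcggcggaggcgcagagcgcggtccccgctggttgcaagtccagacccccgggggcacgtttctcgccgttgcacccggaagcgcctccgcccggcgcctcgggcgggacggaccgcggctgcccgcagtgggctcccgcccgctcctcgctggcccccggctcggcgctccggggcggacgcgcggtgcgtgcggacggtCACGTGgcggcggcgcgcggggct
Eif4h: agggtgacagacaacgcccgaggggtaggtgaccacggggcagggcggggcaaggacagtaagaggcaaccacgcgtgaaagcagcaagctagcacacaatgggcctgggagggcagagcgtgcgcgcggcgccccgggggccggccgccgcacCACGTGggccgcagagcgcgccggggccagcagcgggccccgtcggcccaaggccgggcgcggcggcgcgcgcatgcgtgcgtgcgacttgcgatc
Eif5a: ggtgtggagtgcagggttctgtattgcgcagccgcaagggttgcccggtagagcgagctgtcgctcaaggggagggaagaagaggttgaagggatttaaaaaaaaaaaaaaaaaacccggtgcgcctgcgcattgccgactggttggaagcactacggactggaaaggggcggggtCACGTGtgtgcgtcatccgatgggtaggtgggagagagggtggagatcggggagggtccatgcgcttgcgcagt

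Sequence was used for 33 of the 41 genes, with 43 windows. Chromosome 18, where Eif1a lies, was left out for these genes but kept in the count over all windows. An E-box was present in 7 genes (Eif1b, Eif3f, Eif3k, Eif4a1, Eif4e, Eif4h and Eif5a) and 9 of the 43 windows, against 7.15% of all 32851 windows. The windows of these genes were also richer in G and C, with a median of 59.6% over the 250 bases against 52.4% over all windows. The D-box core TTATGNAA was in 0 windows of these genes and 3.38% of all, and the ATF4 and C/EBP core TGATGNAA was in that of Eif2s3x and 3.97% of all. These are matches of letters in a window, and binding was not measured.

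Among the factors that deliver the initiator tRNA, Eif2s2, the beta subunit of eIF2, was 7.71% lower on the high-fat diet. Control values ran from 10.35 to 10.92 with a median of 10.66, and high-fat values from 10.16 to 10.87 with a median of 10.51. The difference was -0.12 ± 0.03 (limma adjusted p = 0.0103). The other tested members of this group, Eif2a, Eif2d and Eif2s3x, had differences of -0.06, -0.06 and -0.02 and did not pass. The 3 tested subunits of eIF2B, which recharges eIF2 with GTP, had differences of -0.10 to -0.04 and the smallest limma adjusted p among them was 0.284.

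The 4 kinases that phosphorylate eIF2 did not pass the test for the average difference. An unadjusted p under 0.05 was found for 1 of them, against 26.7% of all genes. Eif2ak1 (the haem-regulated kinase) had a difference of -0.09 ± 0.07 (limma adjusted p = 0.398). Eif2ak4 (GCN2, the sensor of uncharged tRNA) had -0.13 ± 0.05 (limma adjusted p = 0.0775). Eif2ak2 (PKR, which senses double-stranded RNA) and Eif2ak3 (PERK, which senses unfolded protein in the endoplasmic reticulum) had 0.08 ± 0.07 and 0.09 ± 0.12, with limma adjusted p of 0.449 and 0.676. Eif2ak3 spread most widely among mice, from 5.10 to 6.74 on the control diet and 5.32 to 7.00 on the high-fat diet.

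Read by their brightest probe sets, the cap-side factors did not move as a block. Of 9 tested cap-binding and helicase genes, 5 had negative and 4 positive differences, and only Eif4a3 passed. The split depends in part on the probe set. Eif4g2 (0.04) and Eif4e2 (0.07) were positive, but their other probe sets gave -0.22 to -0.03 and -0.12 to -0.01. For the other positive genes, the further probe sets gave 0.14 (Eif4e3) and -0.004 and 0.07 (Eif4g3). Eif4a3, a helicase of the eIF4A family that sits in the exon junction complex left on spliced mRNA, had a control median of 9.24 (8.88 to 9.54) and a high-fat median of 9.12 (8.90 to 9.44). Its difference was -0.15 ± 0.04 (limma adjusted p = 0.0082), or 9.89% lower. Eif4a1, the helicase of the cap complex, differed by -0.03 (limma adjusted p = 0.382) and the cap-binding protein Eif4e by -0.02 (limma adjusted p = 0.80).

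Of the repressors that hold eIF4E off the cap complex, Eif4ebp2 was lower and Eif4ebp1 did not pass. Eif4ebp2 had a control median of 9.03 (8.87 to 9.31) and a high-fat median of 8.87 (8.70 to 9.16). The difference was -0.16 ± 0.03 (limma adjusted p = 0.0023), or 10.3% lower. Eif4ebp1 had -0.06 ± 0.06 (limma adjusted p = 0.586), with medians of 8.05 and 8.01. Eif5a, which carries the modified residue hypusine and eases peptide bond formation at difficult stretches, was 7.91% lower, at -0.12 ± 0.03 (limma adjusted p = 0.0064). Its medians were 11.52 and 11.44 on the control and high-fat diets. Eif6, which keeps the large subunit from joining early, had a difference of -0.09 ± 0.04 (limma adjusted p = 0.164).

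The 10 tested subunits of eIF3, the scaffold between mRNA and ribosome, had 9 negative and 1 positive difference, between -0.13 and 0.04 with a median of -0.08. The positive subunit was Eif3d, whose dimmer probe set gave -0.20 ± 0.04. Eif3f was negative, and its dimmer probe set gave 0.05 ± 0.03. No subunit passed the test. An unadjusted p under 0.05 was found for 4, all of them negative, against 26.7% of all genes in either direction. The smallest limma adjusted p was 0.062, for Eif3i. With the mean over all probe sets Eif3c, Eif3i and Eif3l passed as lower, and with array weights Eif3i did.

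The averages depended on the ZT16 mice for several genes. Without the ZT16 mice, Eif1b (-0.23, limma adjusted p = 0.0203) and Eif4ebp2 (-0.16, limma adjusted p = 0.014) were still lower, while Eif1ax fell short at -0.10 (limma adjusted p = 0.219), Eif5a at -0.04 (0.478), Eif2s2 at -0.07 (0.217) and Eif4a3 at -0.14 (0.0567). The choice of probe set also mattered: with the mean over all probe sets of a gene, Eif1ax (-0.09, limma adjusted p = 0.234) and Eif4ebp2 (-0.08, limma adjusted p = 0.133) no longer passed, and Eif2s2 turned to 0.03 (limma adjusted p = 0.735). Its second, dimmer probe set had a difference of 0.17. Eif1b, Eif4ebp2, Eif1ax and Eif2s2 had negative differences at all 6 times, although those of Eif1ax and Eif2s2 at ZT4 were only -0.01 each.

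The second question was at which times the diets differed. At ZT16, 6 of the 39 factors differed, 4 lower and 2 higher, against a background of 13.3% of all genes called in either direction (6.13% higher, 7.13% lower). That share is close to the background. At ZT0 there was 1 (background 3.56%) and at ZT8 there were 2 (background 1.78%). At ZT4, ZT12 and ZT20 limma called 0 (backgrounds 0.312%, 0.858% and 0.819%). At an unadjusted p under 0.05 there were 5, 2 and 8 at these times, against 12.3%, 14.4% and 13.6% of all genes. The median difference of the 39 was -0.10 at ZT16 against -0.02 over all genes, and 0.01 at ZT4 against 0.01.

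**Figure D2:**
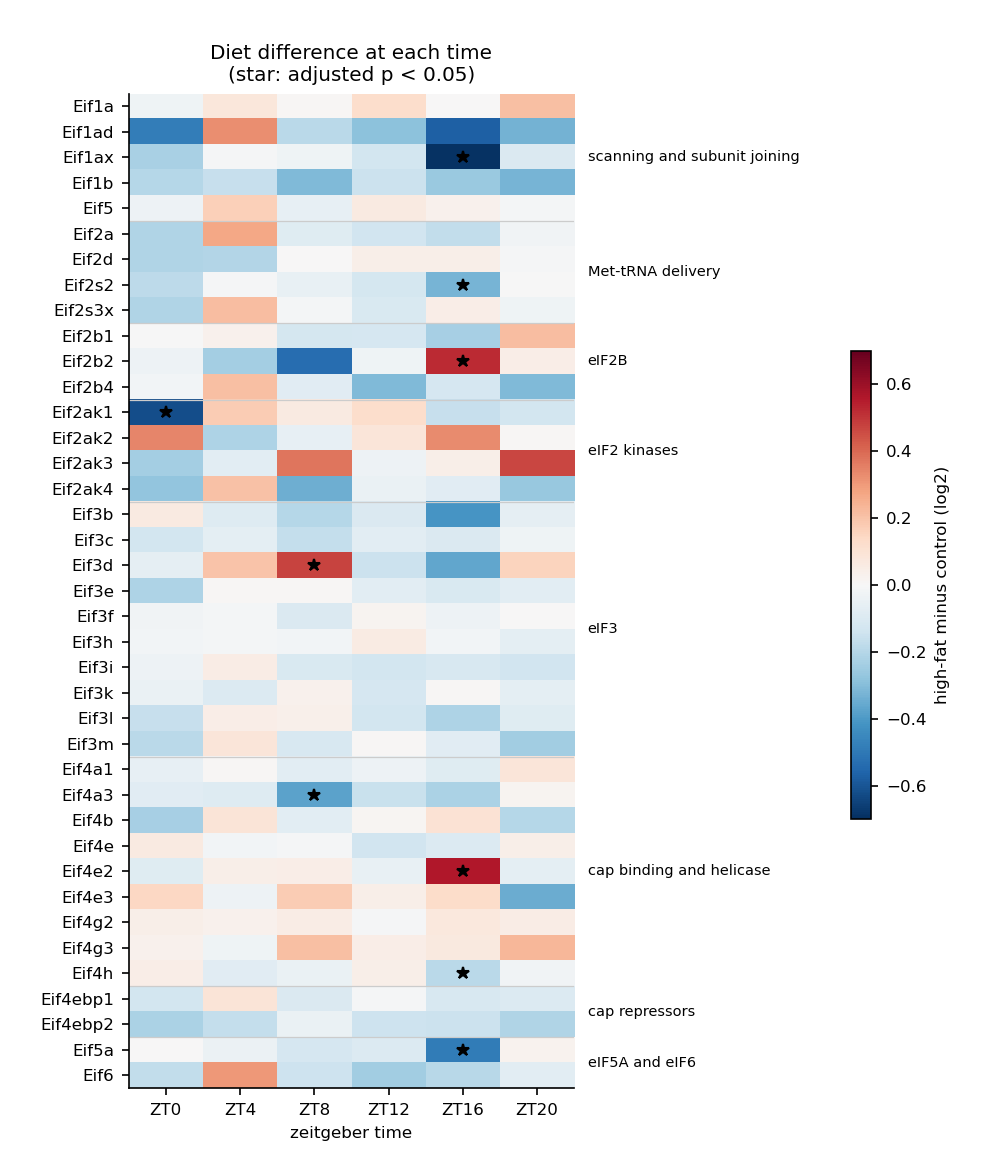
High-fat minus control difference (log2) of the 39 tested initiation factors at each zeitgeber time, grouped by role and coloured from blue (lower on the high-fat diet) to red (higher), with a star where the adjusted p was under 0.05. Stars stand at ZT0 for Eif2ak1, at ZT8 for Eif3d and Eif4a3 and at ZT16 for 6 genes, from -0.69 for Eif1ax to 0.56 for Eif4e2.

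Eif1ax and Eif5a had the clearest differences at ZT16. Eif1ax read 9.75, 9.70, 9.65 and 9.66 in the control mice and 8.95, 9.19 and 8.85 in the high-fat mice. Every high-fat mouse lay below every control mouse, and the 3 were also below the mice of all other groups. The difference was -0.69 ± 0.11, or 38.1% lower (limma adjusted p = 2.61e-05). Eif5a read 11.43, 11.29, 11.46 and 11.46 on the control diet and 10.92, 10.90 and 10.94 on the high-fat diet. The 3 high-fat mice were again the lowest of all mice, and the difference was -0.49 ± 0.08, or 28.8% lower (limma adjusted p = 3.08e-05). The other probe set of each gene moved the same way, by -0.40 ± 0.20 for Eif1ax and -0.39 ± 0.09 for Eif5a, and both calls held under every alternative tried, leaving out any single mouse included.

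Eif2s2 read 10.59, 10.60, 10.67 and 10.59 on the control diet at ZT16 and 10.31, 10.39 and 10.16 on the high-fat diet. The groups did not overlap, and it was 20.1% lower, by -0.32 ± 0.08 (limma adjusted p = 0.00521). Without high-fat ZT16 replicate 3 this became -0.26 (limma adjusted p = 0.0684), and its dim second probe set gave 0.02 ± 0.22. Eif4h, which stimulates the eIF4A helicase, read 11.55, 11.47, 11.68 and 11.64 against 11.33, 11.37 and 11.48. These groups overlapped at 1 control mouse. Eif4h was 12.4% lower, by -0.19 ± 0.06 (limma adjusted p = 0.0269), and its 4 other probe sets gave differences of -0.44 to -0.13. Its adjusted p rose to 0.0531 after cyclic loess and to up to 0.140 without control replicate 3 or 4 or high-fat replicate 1 or 2 of ZT16.

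The 2 genes that were higher at ZT16 were Eif2b2, the beta subunit of eIF2B, and Eif4e2, a cap-binding relative of eIF4E that represses translation. Eif2b2 read 8.20, 7.84, 8.32 and 7.75 on the control diet and 8.48, 8.65 and 8.52 among high-fat mice, a difference of 0.52 ± 0.17 or 43.6% (limma adjusted p = 0.0303). The groups did not overlap, and its other probe set gave 0.40 ± 0.18. With the mean over all probe sets the limma adjusted p of Eif2b2 was 0.0536. Eif4e2 read 8.08, 8.32, 8.30 and 8.39 against 8.72, 8.94 and 8.85, a difference of 0.56 ± 0.18 or 47.5% (limma adjusted p = 0.0318). Its 4 other probe sets did not follow: they gave -0.72 ± 0.22, -0.57 ± 0.14, -0.26 ± 0.26 and 0.02 ± 0.12, and the mean over all probe sets was -0.19. The direction of Eif4e2 therefore depends on the probe set read. The adjusted p of Eif2b2 was over 0.05, up to 0.116, without control replicate 2 or 4 or any 1 of the high-fat mice of ZT16. That of Eif4e2 was over 0.05, up to 0.106, without control replicate 1 or 3 or any 1 of the high-fat mice. The count at ZT16 was 3 without high-fat replicate 1 or without replicate 3.

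**Figure D3:**
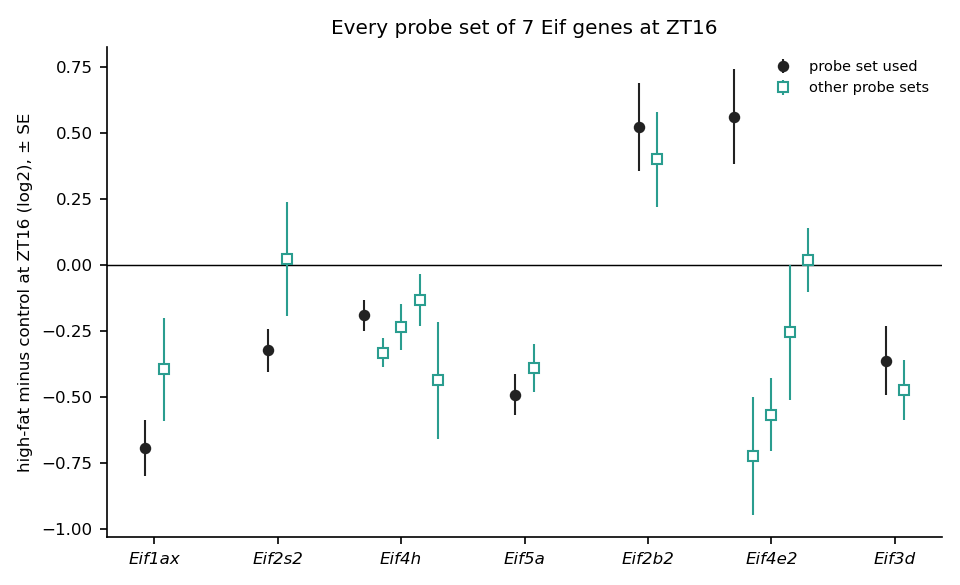
High-fat minus control difference at ZT16 (log2, with bars of 1 SE) for every probe set of the 6 genes called at ZT16 and of Eif3d; the filled circle is the brightest probe set, used in the tests, and open squares are the others. Both probe sets of Eif1ax, Eif5a and Eif2b2 lie on the same side of 0, whereas the 5 probe sets of Eif4e2 run from -0.72 to 0.56.

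Counted by overlap alone, 11 of the 39 factors had all high-fat mice below all control mice at ZT16 and 3 had them all above, against 15.8% and 13.3% of all genes. Of the 9 satellite cell markers, 2 were higher at this time and 2 lower, with a median difference of 0.01. Calcr (0.59 ± 0.18) and Sdc4 (0.25 ± 0.05) were higher, and Myod1 (-0.70 ± 0.10) and Chrdl2 (-0.48 ± 0.11) lower. The mean level of the endothelial markers was 5.82 to 5.91 in the 3 high-fat mice against 5.49 to 5.59 in the control mice, and that of the fibro-adipogenic markers 8.52 to 8.68 against 8.18 to 8.45. Taken gene by gene, limma called 0 of the 2 tested endothelial markers (1 higher at an unadjusted p under 0.05) and 0 of the 4 tested fibro-adipogenic markers (0 at an unadjusted p under 0.05). The smooth muscle and pericyte level was 8.66 to 9.32 against 8.74 to 10.29, with a median difference of -0.41 and 0 of 4 markers called (0 at an unadjusted p under 0.05). Of the 5 tested myofibre markers 1 was called, Mylpf (0.52 ± 0.13), and of the 3 tested Schwann cell markers 1, Mag (0.41 ± 0.11), both higher. The myofibre level was 6.05 to 6.17 in high-fat against 5.91 to 6.02 in control mice. The Schwann cell level was 7.35 to 7.58 against 7.18 to 7.49. Among the 2 tested immune markers limma called 0 (0 at an unadjusted p under 0.05). The part of these levels in the ZT16 differences was not tested. Control ZT16 and high-fat ZT16 were collected on the same day.

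At ZT0, Eif2ak1 was 35.0% lower on the high-fat diet. It read 7.43, 7.54, 7.68 and 7.48 in control mice and 6.90, 6.93, 7.18 and 6.64 in high-fat mice. The groups did not overlap, and the difference was -0.62 ± 0.16 (limma adjusted p = 0.0251). Its 2 other probe sets gave -0.14 and -0.15, and with the mean over probe sets the difference was -0.30 (limma adjusted p = 0.0919). The adjusted p was also over 0.05, up to 0.108, without control replicate 2 or 3 or high-fat replicate 1 or 4 of that time.

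At ZT8, the eIF3 subunit Eif3d, which can itself bind the cap of some mRNAs, was higher and Eif4a3 was lower. Eif3d read 8.51, 8.50, 8.75 and 8.86 in control mice and 9.36, 9.29, 8.90 and 8.95 in high-fat mice, a difference of 0.47 ± 0.12 (limma adjusted p = 0.0335). Eif4a3 read 9.44, 9.44, 9.39 and 9.28 against 9.07, 9.15, 8.92 and 8.90, a difference of -0.38 ± 0.09 (limma adjusted p = 0.0264). Both pairs of groups were without overlap. Neither call held with the mean over probe sets, or when any 1 of control replicates 1 to 3 of ZT8 was left out. Leaving out high-fat replicate 1 or 2 also ended the call of Eif3d (adjusted p up to 0.103), and leaving out high-fat replicate 3 or 4 that of Eif4a3 (up to 0.0829). The second probe set of Eif3d gave -0.09 at this time.

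**Figure D4:**
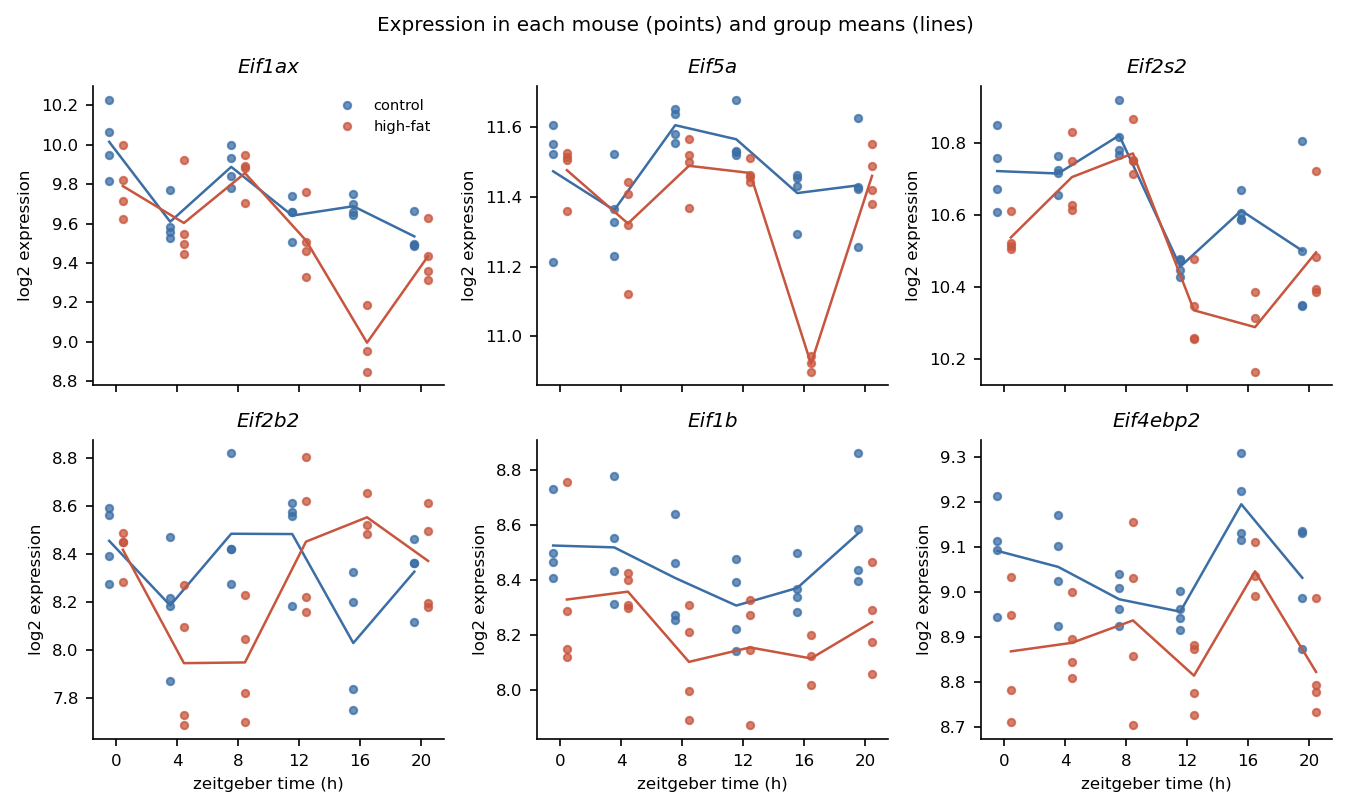
Log2 value of each mouse by zeitgeber time for Eif1ax, Eif5a, Eif2s2, Eif2b2, Eif1b and Eif4ebp2, with control and high-fat mice in separate colours and lines through the group means. The 3 high-fat mice of ZT16 lie between 8.85 and 9.19 for Eif1ax and between 10.90 and 10.94 for Eif5a, below all other mice.

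Whether the diet difference itself varied over the 6 times was tested with an interaction term. It passed for 6 of the 39 factors, against a background of 12.4%: Eif5a (limma adjusted p = 0.0074), Eif1ax (0.0110), Eif3d (0.0129), Eif2b2 (0.0244), Eif4b (0.0400) and Eif6 (0.0468). The patterns were of different kinds. Eif5a and Eif1ax departed at ZT16 and had differences of -0.12 to 0.03 and -0.22 to -0.01 at the other times. Eif2b2 had values of -0.53 ± 0.15 at ZT8 (limma adjusted p = 0.0576) and 0.52 at ZT16, and Eif3d had 0.47 at ZT8 and -0.36 at ZT16 (the latter with limma adjusted p = 0.0567). Eif4b, a cofactor of the eIF4A helicase, and Eif6 passed at no single time. Eif4b had values of -0.23 at ZT0 (limma adjusted p = 0.0528) and 0.10 at ZT16 (0.389), and Eif6 had 0.30 at ZT4 (0.172) and -0.24 at ZT12 (0.241). The interaction of Eif6 was kept in 13 of 47 fits that left out 1 mouse and had a limma adjusted p of 0.320 with the mean over all probe sets. That of Eif4b was kept in 32 of 47 and had a limma adjusted p of up to 0.0814 after cyclic loess or with the replicate block. Eif1ax lost the call without high-fat replicate 3 of ZT16 (limma adjusted p = 0.0606) and with the mean over all probe sets (0.0654). Eif2b2 lost it without control replicate 2 or 4 or high-fat replicate 2 of ZT16 (limma adjusted p up to 0.0577). Eif5a and Eif3d kept it in every alternative. The interaction count was 3 without control replicate 2, control replicate 4 or high-fat replicate 2 of ZT16.

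The third question was whether the factors followed a daily rhythm on each diet. A 24 h cosine passed for 3 of the 39 on the control diet (background 10.5%) and for 7 on the high-fat diet (background 16.9%). The amplitudes, from the fitted mean to the peak, were small, with medians of 0.08 (control) and 0.10 (high-fat), against 0.11 and 0.12 over all genes. They were larger on the high-fat diet for 20 factors and on the control diet for 19.

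Eif4g3, a scaffold of the cap complex, Eif1a and Eif2s2 passed on both diets, with fitted peaks at most 0.85 h apart. The weakest of these calls were those of Eif2s2 on the control diet, kept in 25 of 47 fits that left out 1 mouse, and of Eif1a on the high-fat diet, kept in 27 of 47. With the mean over all probe sets Eif4g3 passed on neither diet (limma adjusted p = 0.318 and 0.134) and Eif2s2 on neither (0.403 and 0.0787). The dimmer probe sets of Eif4g3 had control amplitudes of 0.04 and 0.10, the latter with a peak at 21.0 h. Eif4g3 had amplitudes of 0.24 ± 0.05 (control) and 0.20 ± 0.05 (high-fat), with peaks 4.46 ± 0.82 h and 4.56 ± 1.01 h after ZT0 (limma adjusted p = 0.00455 and 0.0251). Its control values were 9.84, 9.29, 9.77 and 9.73 at ZT4 and 8.92, 9.38, 9.25 and 9.12 at ZT20, so that 1 mouse of ZT4 fell among those of ZT20. Eif2s2 had amplitudes of 0.13 ± 0.04 and 0.22 ± 0.04 with peaks at 4.45 ± 1.10 h and 4.36 ± 0.67 h (limma adjusted p = 0.0469 and 0.000522). On the high-fat diet it read 10.87, 10.75, 10.71 and 10.75 at ZT8 and 10.31, 10.39 and 10.16 at ZT16, without overlap.

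On the high-fat diet Eif1ax, Eif1ad, Eif5 and Eif2b2 passed as well. With the mean over all probe sets Eif1ax and Eif5 no longer passed, while Eif2b2 and Eif1ad, which has 1 probe set, still did. Eif1ax had an amplitude of 0.30 ± 0.06 and a peak at 4.54 ± 0.77 h (limma adjusted p = 0.00239), against 0.10 ± 0.06 on the control diet (limma adjusted p = 0.515). Eif1ad had 0.34 ± 0.09 and Eif5 0.13 ± 0.03, with peaks at 5.52 and 5.57 h. Eif2b2 stood at the other side of the day, with an amplitude of 0.30 ± 0.07 and a peak at 17.5 ± 0.92 h (limma adjusted p = 0.0122). Its high-fat values were 7.69, 8.10, 7.73 and 8.27 at ZT4 and 8.48, 8.65 and 8.52 at ZT16. Of the 7 factors, 6 had peaks under 6 h after ZT0, from 1.73 to 5.57 h, against 37.8% of the 1731 genes rhythmic on that diet.

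**Figure D5:**
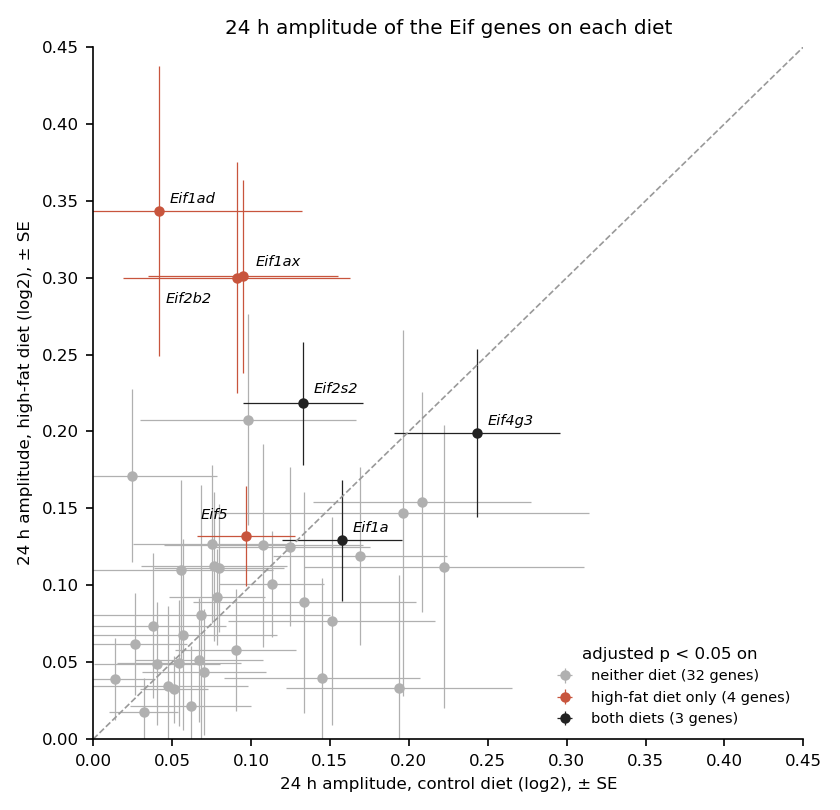
Amplitude of the fitted 24 h cosine (log2) on the control diet (horizontal axis) and the high-fat diet (vertical axis) for the 39 tested initiation factors, with bars of 1 SE that are not drawn below 0; colours show on which diet the rhythm passed an adjusted p of 0.05. Eif1ax, Eif1ad and Eif2b2 lie above the diagonal at 0.30 to 0.34 on the high-fat diet, and Eif4g3 has the largest control amplitude, 0.24.

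A difference in rhythm between diets was tested separately, and limma called 0 of the 39 (background 2.11%). At an unadjusted p under 0.05 there were 6, against 18.9% of all genes. The smallest adjusted p was 0.0505, for Eif2b2, so a rhythm that passed on 1 diet and not on the other was not shown to differ between them. Eif2b2 passed after cyclic loess and with array weights. The counts of rhythmic factors depended on the model of the days. With collection day as a random block, limma called 0 on the control diet (6 at an unadjusted p under 0.05) and 2 on the high-fat diet, Eif1ax and Eif2s2. Without the ZT16 mice they were 5 (control) and 3 (high-fat), and Eif1ax was not among the latter.

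Genes that act beside the initiation factors were counted from 3 lists, against the backgrounds given above of 6.8% lower and 4.7% higher on average and 7.13% and 6.13% at ZT16. At an unadjusted p under 0.05 the share of all genes on average was 26.7% in either direction. The first list held 13 tested genes tied to the integrated stress response, the programme that follows eIF2 phosphorylation, not all of them its outputs. On the high-fat diet 3 were lower and 0 higher on average (7 and 0 at an unadjusted p under 0.05 in limma). These were Ppp1r15b (-0.15 ± 0.02), which guides the eIF2 phosphatase, the stress-induced Sesn2 (-0.26 ± 0.05), and Shmt2 (-0.17 ± 0.06) of mitochondrial serine metabolism. At ZT16 the list split, with Ddit4, an inhibitor of mTORC1, higher by 1.21 ± 0.25 and the inducible phosphatase subunit Ppp1r15a higher by 0.32 ± 0.08, while Ppp1r15b and the amino acid transporter Slc7a5 were lower. Of 14 genes of mTORC1 and cap signalling, Mtor (-0.19 ± 0.05), Larp1 (-0.34 ± 0.08) and Pabpc1 (-0.06 ± 0.02) were lower and Rps6kb2 (0.16 ± 0.05) was higher. Of 12 elongation and termination genes, 4 were lower and 0 higher (5 lower and 0 higher at an unadjusted p under 0.05), the elongation factors Eef1b2, Eef1d, Eef1g and Eef2, by -0.07 to -0.04. The medians of the lists were -0.07, -0.01 and -0.04, against -0.06 for the initiation factors and -0.01 for all genes.

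Markers of other cells also moved with diet. On average Pax7 (0.11), Vcam1 (0.15) and Calcr (0.27) of the satellite cell list were higher and Myod1 (-0.28) was lower. Of the fibro-adipogenic markers 2 of 4 tested were higher, Col3a1 and Dpt, and of the Schwann cell markers 2 of 3, Mbp and Sox10, while the immune marker Cd68 was lower. Of the smooth muscle and pericyte markers limma called 0 of 4 (2 lower at an unadjusted p under 0.05), with a median difference of -0.20 and mean levels of 8.74 to 10.29 in control and 8.40 to 9.93 in high-fat mice. The mean fibro-adipogenic level ran from 8.03 to 9.45 in control mice and from 8.26 to 9.27 in high-fat mice, and the mean Schwann cell level from 7.18 to 7.91 and from 7.20 to 8.49. Their part in the average differences of the initiation factors was not tested.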

How the data were processed

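RNA of muscle stem cells from 47 mice was measured on Affymetrix arrays, 1 per mouse; per the labels' protocols, cDNA was amplified from 25 ng of RNA over 17 cycles. The authors deposited log2 values for each probe set. The submitters' processing notes list RMA, with version and settings not given in the sources used here. RMA equalises arrays by quantiles, so a difference is read against the bulk of the genes, and is compressed near background. The number of arrays limits the precision.

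Of 45141 probe sets, 28898 had 1 gene symbol, 551 several and 15692 none; only the first were named, and 28689 were updated through the gene ID. The probe set with the highest mean stood for a gene, and genes under the 40th percentile were left out. Tests were two-sided in limma 3.58.1 (R 4.3.3; lmFit, eBayes with trend) on all mice, with Benjamini-Hochberg adjustment over 10258 genes and a threshold of 0.05. Group means gave the diet differences and the interaction (F test), and 24 h cosine and sine terms the rhythms; the rhythm difference had time as a factor. Values after ± are limma's SE, from 24 control and 23 high-fat mice for an average and from 4 mice per group (3 at high-fat ZT16) at a time. The fits were tested on simulated data. Alternatives were no filter, the mean of all probe sets, cyclic loess, array weights, the replicate block, leaving out each mouse or the ZT16 mice, day as a random block and, for the rhythm difference, shared cosine and sine terms instead of the time factor.

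Genes named with values were those past the threshold (at most 8 per test), the kinases and repressors, and Eif2s3y; other members were given by counts and ranges or named for the text. Members and lists were chosen with earlier results of these data known.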

Additional observations from a re-analysis of the deposited data

Results flagged for a closer look

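Single mice stood far from the other 3 of their group in 10 of 132 groups of 4 (12 genes given by mouse), where chance gives about 1 in 20. Eif1ax was 9.67 in control ZT20 replicate 1 (others 9.48 to 9.50). Eif2ak1 was 6.87 in high-fat ZT20 replicate 3 (others 7.31 to 7.36), and Eif2b2 was 8.19 in control ZT12 replicate 1 (others 8.56 to 8.61). Eif2s2 was 10.61 in high-fat ZT0 replicate 1 (others 10.50 to 10.52). Eif4e2 was 8.13 in control ZT8 replicate 2 (others 8.47 to 8.52) and 7.79 in high-fat ZT12 replicate 4 (others 8.63 to 8.76). Eif4h was 11.41 in control ZT0 replicate 2 (others 11.50 to 11.52) and 11.51 in control ZT8 replicate 1 (others 11.58 to 11.60). Eif5a was 11.68 in control ZT12 replicate 4 (others 11.52 to 11.53) and 11.36 in high-fat ZT0 replicate 4 (others 11.51 to 11.53). None of these mice is at ZT16, but high-fat ZT16, with 3 mice, was too small for this check and was not in it.

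The diet difference of 6 genes varied over the times by limma's interaction test, with adjusted p of 0.0074 for Eif5a, 0.0110 for Eif1ax, 0.0129 for Eif3d, 0.0244 for Eif2b2, 0.0400 for Eif4b and 0.0468 for Eif6. The last 2 were lost with the replicate number as a block.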

How the results depend on the processing

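Of 31 results for single genes, 5 kept direction and side of the threshold under every alternative run, Eif1b on average and Eif1ax and Eif5a at ZT16 among them; over 1638 comparisons 169 lost the call and 2 reversed. The reversals came with the mean of all probe sets, for Eif2s2 on average (0.0265) and Eif4e2 at ZT16 (-0.19); there the called members at ZT8 numbered 0, with limma. Without the ZT16 mice the lower members on average numbered 2, and the rhythmic ones 5 (control) and 3 (high-fat); with day as a random block they were 0 and 2 (day correlation 0.156). Array weights gave 2 at ZT0, 11 at ZT16, 5 rhythmic on the control diet and 1 with a rhythm difference, which cyclic loess also gave. Leaving out 1 mouse at a time gave 6 to 9 lower and 0 to 0 higher on average, 0 to 2 at ZT0, 0 to 3 at ZT8, 3 to 7 at ZT16, 0 to 0 at ZT4, ZT12 and ZT20, 3 to 7 in the interaction, 2 to 4 rhythmic (control) and 5 to 8 (high-fat), and 0 to 2 rhythm differences. The causes were not tested.

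Same-numbered mice of the 2 diets did not deviate together (correlations of -0.193 to 0.114 over 23 pairs), so the numbers do not pair them. With the replicate block 6 were lower on average, 1 differed at ZT0, 2 at ZT8, 6 at ZT16 and 4 in the interaction; rhythmic were 3 and 6, and 0 rhythms differed.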
